A study of Bos taurus with 2 samples.

Results

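The genes described here control the delivery of fatty acids from blood lipoproteins to the muscle fibre and the storage and release of these fatty acids in lipid droplets. They were chosen by name for these roles, and comprise 10 genes, namely *ANGPTL4*, *LPL* and *GPIHBP1* (control of lipoprotein lipase), *CD36* (fatty acid uptake), *PNPLA2*, *ABHD5*, *LIPE* and *MGLL* (lipases and a coactivator) and *PLIN2* and *PLIN5* (droplet coat). An accession on the array was matched to 9 of them, with 15 of the 43652 probes, among 26714 genes or transcripts in all. No probe was matched to *GPIHBP1*, which is therefore only named. The set was proposed with the signals of both arrays in view, so all differences are descriptions, without a test.

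Japanese Black cows received 120% of the nutrients they required through gestation in the high-nutrition (HN) group and 60% in the low-nutrition (LN) group, and the longissimus thoracis (LT) muscle of the fetuses was collected at 8.5 months, on day 260 ± 8.3 of gestation. RNA was pooled from the 4 heaviest HN fetuses and from the 4 lightest LN fetuses, and each pool was hybridized to 1 Agilent 1-color array. Diet and the choice of fetuses by body weight cannot be told apart, and with 1 array per group neither the spread between fetuses nor a p-value can be given. In whole muscle, fewer cells of a type and less RNA per cell cannot be told apart either.

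Lipoprotein lipase, encoded by *LPL*, is made by muscle fibres and adipocytes and is carried by the endothelial protein GPIHBP1 to the capillary wall, where it releases fatty acids from triacylglycerol-rich lipoproteins. ANGPTL4 is a secreted inhibitor of this enzyme, and its gene is induced by fatty acids through PPAR receptors, by fasting and by low oxygen. Inside the cell, fatty acids are stored as triacylglycerol in droplets coated by perilipins, and are released stepwise by adipose triglyceride lipase (*PNPLA2*) with its coactivator (*ABHD5*), hormone-sensitive lipase (*LIPE*) and monoacylglycerol lipase (*MGLL*).

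Signals are array intensities, and a log2 signal is the quantile-normalized log2 of the intensity. The comparison is log2 LN/HN, negative where the LN pool was lower. The software marked 14 of the 15 probes as well above background on both arrays, and all 15 were printed in 1 spot. The software's own error of the log2 LN/HN of these 14 probes was between 0.20 and 0.36, and is given after ± below. The median negative control had a signal of 1.24 (HN array) and 1.51 (LN array), and no spot was saturated. Signals of different probes cannot be set against each other, because probes differ in how well they hybridize. A summed signal, given below for lists, adds 1 intensity per gene before normalization. This intensity is the mean of the gene's probes well above background on that array, so the probes used can differ between the arrays. The brightest genes weigh most in it, and it is a description only.

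Among the 9 genes measured, 5 were lower in the LN pool, against 50.7% of all genes, and these include *LIPE*, whose direction changed with the processing. *ANGPTL4*, *MGLL* and *PLIN5* were lower and *PLIN2* was higher by more than a threshold of 0.32 in log2 LN/HN, the value at which one pool exceeds the other by 25% and which the study also applied. *LPL*, *CD36*, *PNPLA2*, *ABHD5* and *LIPE* stayed within it, though *CD36* and *LIPE* passed it, and *MGLL* and *PLIN5* fell short of it, in some other ways of processing the arrays. These are 3 lower genes, against 9.11% of the 19554 genes with a value on the array, and 1 higher gene, against 8.85%. With the normexp background correction there was 1 lower gene, *ANGPTL4*, against 1.96% of all genes. Past 2-fold there was 1 gene, *ANGPTL4*, against 0.997% of all genes in either direction and 0.286% lower. By probe, 5 of 14 were past the threshold lower (8.31% of the 30639 probes well above background on both arrays) and 1 of 14 higher (8.59%). The median log2 LN/HN of the 9 genes was -0.24, and that of all genes -0.0033. The median of the 9 genes was not stable, at -0.067 with the normexp background correction, -0.024 with the brightest probe of each gene and 0.015 with dim probes kept as measured. The background itself depended on the scaling of the arrays, with 1781 genes lower and 1731 higher here (49.3% higher), 2693 and 1191 with each array scaled by its 75th percentile (30.7%), and 2260 and 1462 without normalization (39.3%).

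**Figure D1:**
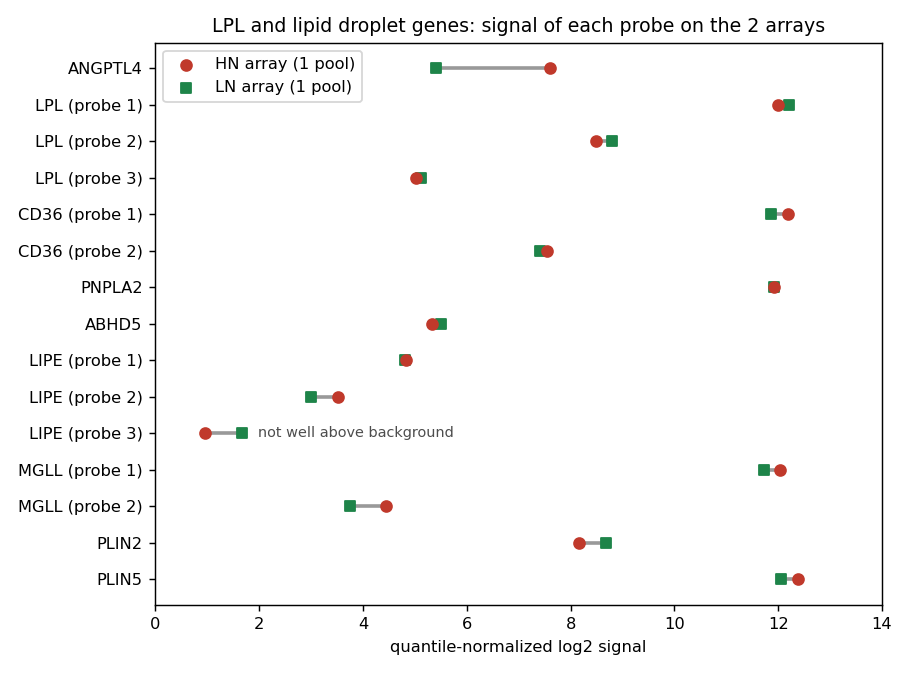
Quantile-normalized log2 signal (horizontal axis) of the 15 probes of the LPL and lipid droplet genes, with the HN pool as circles and the LN pool as squares (1 array each), and probes of a gene numbered from the brightest. The widest gap among probes well above background is that of *ANGPTL4*, and probe 3 of *LIPE* is not well above background on either array.

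*ANGPTL4*, the inhibitor of lipoprotein lipase, had 1 probe, for the transcript NM_001046043. Its intensity was 192.9 in HN and 41.6 in LN, or log2 signals of 7.60 and 5.40. The LN pool was thus 4.61-fold lower, a log2 LN/HN of -2.20 ± 0.21. The spot was well above background on both arrays, at 156 (HN) and 27.6 (LN) times the median negative control, with median pixel values of 199 and 66 over local backgrounds of 24 and 23. Of 3490 probes whose mean log2 signal lay within 0.5 of that of *ANGPTL4*, 95% had a log2 LN/HN between -0.50 and 0.48, and *ANGPTL4* itself was the lowest of them. The probe stands alone, so no other probe of the gene can be set beside it. The study names the gene among those most reduced in the LN pool on the same arrays, so its choice here is not independent. By PCR in individual fetuses, the study also reports lower expression of the gene in the LN group. Those fetuses include the pooled animals, and the PCR test took its direction from the arrays. The study's PCR primers for the same transcript are shown, because they fix which *ANGPTL4* sequence is meant and the probe's own sequence was not used here (written 5′ to 3′, with no base singled out by capitals).
*ANGPTL4* forward primer: aatctacagagccagatggatcac
*ANGPTL4* reverse primer: ctttccctctctccctcttcaaac

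*LPL* had 3 probes, and all of them were slightly higher in the LN pool, though the dimmest was at -0.045 after the normexp correction. The brightest gave intensities of 4023 in HN and 4787 in LN (log2 LN/HN 0.22 ± 0.20), the second 356.4 and 449.4 (0.30 ± 0.20) and the dimmest 33.1 and 34.0 (0.092 ± 0.22). Their mean was 0.20, with an SD between probes of 0.10, or 1.15-fold, within the threshold. The difference between the log2 LN/HN of *LPL* and *ANGPTL4* was 2.41 ± 0.24, a 5.30-fold shift in favour of *LPL* in the LN pool, and it lay between 1.41 and 2.42 over 10 ways of processing the arrays. This pair, like the other pairs below, was formed after the values had been seen.

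*CD36*, the fatty acid translocase of muscle fibres and capillary endothelium, had 2 probes and was lower in the LN pool in both. The brighter probe gave intensities of 4601 in HN and 3769 in LN, a log2 LN/HN of -0.33 ± 0.20, which is past the threshold. The dimmer gave 184.9 and 170.2, a log2 LN/HN of -0.14 ± 0.20, which is not. The mean was -0.24 (1.18-fold lower), and with the brighter probe alone the gene was past the threshold. All 11 markers of capillary endothelium were measured. Of these, 9 had a log2 LN/HN below 0 (50.7% of all genes), and 2 were past the threshold lower (9.11% of all genes), namely *CLDN5* (-0.39) and *EGFL7* (-0.45). The other two, *VWF* (0.024) and *ERG* (0.27), each include a probe dim on 1 array and set to its bound there, and were at -0.13 and -0.30 by their brightest probe and at -0.025 and -0.12 after the normexp correction. The list had a median log2 LN/HN of -0.21 and a summed signal of 20459 in HN and 16422 in LN (each had a probe well above background on both arrays). Their part in the value of *CD36* was not tested.

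The lipases did not move as a group. *PNPLA2*, which removes the first fatty acid of triacylglycerol, had 1 probe with intensities of 3794 in HN and 3940 in LN, a log2 LN/HN of 0.015 ± 0.20. The probe of *ABHD5*, whose protein activates this lipase, gave 40.7 in HN and 44.9 in LN, a log2 LN/HN of 0.18 ± 0.21. The *PNPLA2* value was 0.012 to 0.055 over 10 ways of processing, and that of *ABHD5* 0.0071 to 0.22. Both values lay within the error of the array, except that of *ABHD5* after cyclic loess (0.22 against 0.21).

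*LIPE*, the hormone-sensitive lipase that acts on diacylglycerol, was dim on both arrays and its probes disagreed. The brightest of 3 probes gave 29.1 in HN and 27.4 in LN (log2 LN/HN -0.024 ± 0.23). The second gave 12.0 and 7.57 (log2 LN/HN -0.51 ± 0.36), at 5.02 times the median negative control on the LN array. The third was not well above background on either array (2.15 and 2.81). The mean of the first and the second probe was -0.27. Over 10 ways of processing, the value of the gene ran from -0.51 to 0.058. It was above 0 only with dim probes kept as measured, where the third probe is included. No direction is given for *LIPE*.

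*MGLL*, which cleaves the last fatty acid from monoacylglycerol, had 2 probes, both lower in the LN pool. The bright probe gave 4121 in HN and 3456 in LN, a log2 LN/HN of -0.29 ± 0.20, short of the threshold. The dim probe gave 22.2 and 12.8, a log2 LN/HN of -0.70 ± 0.28. The gene passed the threshold by the mean of both (log2 LN/HN -0.50, 1.41-fold lower), and did not with its brightest probe alone. Of the 3552 probes of like signal to the dim probe, 3.29% were as low. The difference between *PNPLA2* and *MGLL*, the first and the last lipase of the pathway, was 0.51 ± 0.27 in log2 LN/HN (0.29 to 0.58 over 10 ways of processing).

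**Figure D2:**
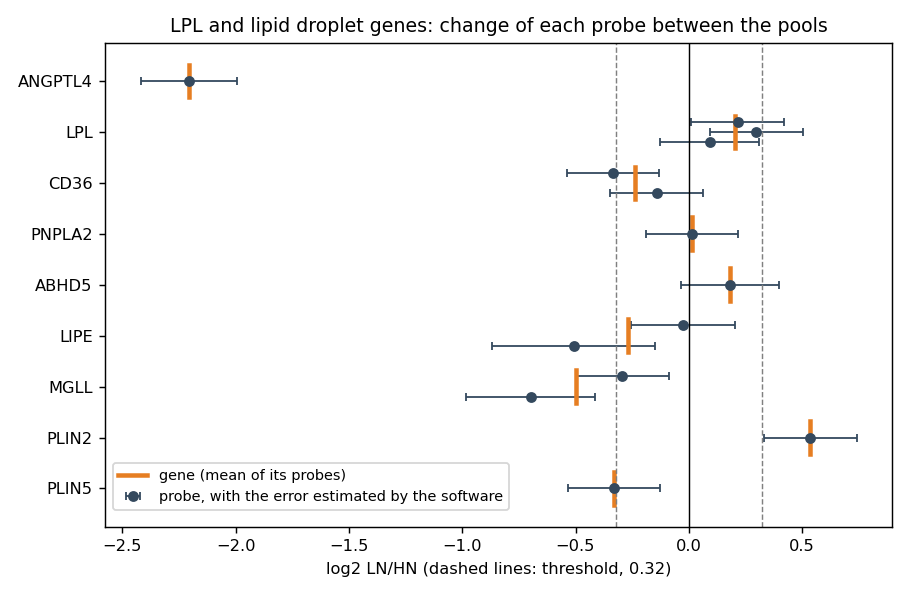
Log2 LN/HN (horizontal axis) of the 14 probes well above background on both arrays, as points with the software's error of the array measurement, and of each gene as a bar at the mean of its probes. *ANGPTL4* lies at -2.20, *PLIN2* at 0.54, and the others between -0.70 and 0.30.

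The perilipins differed in direction. *PLIN2*, the coat protein present on droplets of most cell types, had 1 probe with an intensity of 283.5 in HN and 418.4 in LN. Its log2 LN/HN was 0.54 ± 0.20, or 1.45-fold higher in the LN pool, and 0.967% of the 3205 probes of like signal were as high. *PLIN5*, the perilipin of oxidative tissues that couples droplets to mitochondria, had 1 probe with 5293 in HN and 4324 in LN, a log2 LN/HN of -0.33 ± 0.20 and 1.26-fold lower. This value lay just past the threshold, and was short of it without normalization (-0.29), with the normexp correction (-0.29) and with the authors' log2 values (-0.29). Among the 1338 probes of like signal 3.96% were as low. *LIPE* (-0.27) and *CD36* (-0.24) were the genes next to it on the other side of the threshold. The difference between *PLIN2* and *PLIN5* was 0.87 ± 0.29 in log2 LN/HN, and lay between 0.75 and 0.87 over 10 ways of processing.

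**Figure D3:**
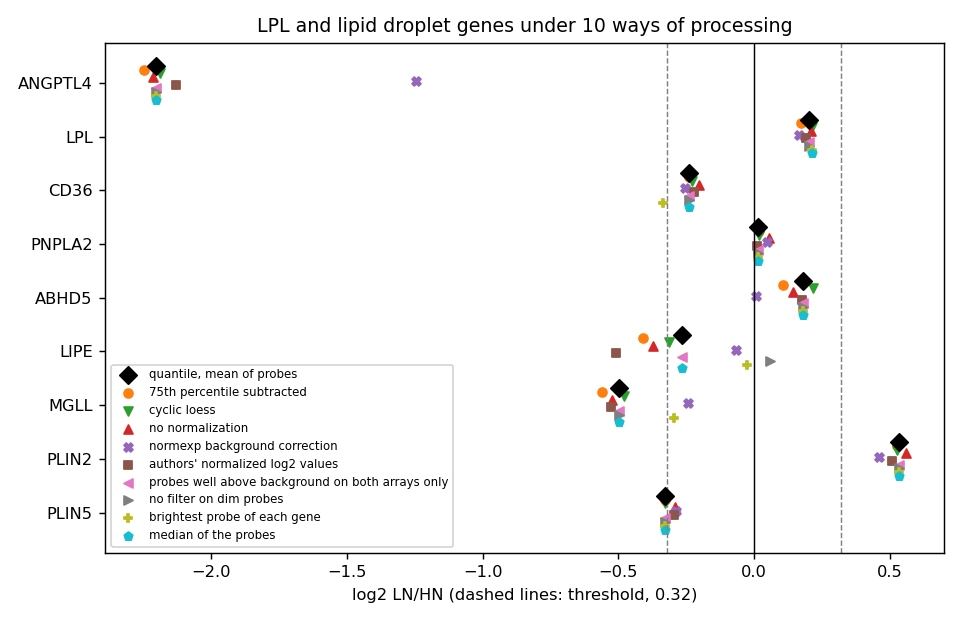
Log2 LN/HN (horizontal axis) of each of the 9 genes under 10 ways of processing the same 2 arrays, 1 marker per way and the values of the text as black diamonds. *ANGPTL4* is past 2-fold lower and *PLIN2* past the threshold (dashed lines) in all 10, whereas *MGLL*, *PLIN5*, *CD36* and *LIPE* cross the threshold and *LIPE* also crosses 0.

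Over these 10 ways of processing, *ANGPTL4* lay between -2.25 and -1.24, *PLIN2* between 0.46 and 0.56, *LPL* between 0.16 and 0.22 and *CD36* between -0.33 and -0.20. *MGLL* lay between -0.56 and -0.24 and *PLIN5* between -0.33 and -0.29. The value of *ANGPTL4* nearest to 0 came from the normexp background correction with an offset of 50, which adds this offset to each signal and by construction draws dim signals together. *LIPE* was the only one of the 9 genes whose direction changed over these 10.

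Other genes of the pathway were taken from hand-written lists. Of 24 genes for the control of lipoprotein lipase and the uptake of fatty acids, 18 had a value, with 3 past the threshold lower, 2 higher and 13 within, and a median log2 LN/HN of -0.14. Over all genes these shares were 9.11% lower and 8.85% higher, so 3 and 2 of 18 are not far from the background, and the same shares apply to the lists that follow. *FABP3*, the fatty acid binding protein of muscle, was lower in all 3 probes (log2 LN/HN -0.94 to -0.75, mean -0.84, 1.79-fold). *FABP4*, the form in adipocytes and capillary endothelium, was higher (0.39, 1 probe). *LIPC*, a hepatic lipase, had a log2 LN/HN of -0.49 from dim probes (-0.74 and -0.24), which was -0.13 after the normexp correction. *APOC2*, the activating cofactor of lipoprotein lipase, was well above background in the HN pool only and at least 1.39-fold lower in the LN pool, though the normexp correction gave it -0.076.

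Of 18 genes of lipolysis and its control, 13 had a value, with 3 past the threshold lower, 1 higher and 9 within (median log2 LN/HN -0.12). Genes of 2 inhibitors of the *PNPLA2* lipase are in this list. *G0S2* differed little (log2 LN/HN -0.12, with -0.12 and -0.11 in its probes). *HILPDA*, also induced by low oxygen, was well above background in the HN pool only and at least 1.46-fold lower in the LN pool, but with the normexp correction its log2 LN/HN was -0.033. *ABHD6*, a further monoacylglycerol lipase, had a log2 LN/HN of -0.48 that includes a probe dim on the LN array and was -0.13 after the normexp correction, and *GK*, the glycerol kinase, was higher (0.40, from 1 of 2 probes).

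For the coat proteins and the enzymes of triacylglycerol storage, 23 of 27 genes had a value, of which 3 were past the threshold lower, 0 higher and 20 within (median log2 LN/HN 0.0081). *FITM2*, which acts in droplet formation, had a log2 LN/HN of -0.38 (3 probes from -0.45 to -0.35), *BSCL2*, which encodes seipin, of -0.36 (-0.48 and -0.25) and *CIDEB*, of the family of droplet fusion proteins, of -0.34 (1 probe). The last step of triacylglycerol synthesis differed little, with 0.13 for *DGAT1* and 0.18 for *DGAT2*. *PLIN3*, another perilipin, had a log2 LN/HN of 0.016. The latter 3 genes and *G0S2* were named after their values had been seen. Of the 12 genes past the threshold in these 3 lists, 4 were also past it after the normexp correction, among them *FABP3*, *FABP4* and *FITM2*, and the other 8 were not. With this correction, the share of all genes past the threshold lower fell from 9.11% to 1.96%. On the higher side it fell from 8.85% to 1.62%, so a loss of calls is not particular to these lists.

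**Figure D4:**
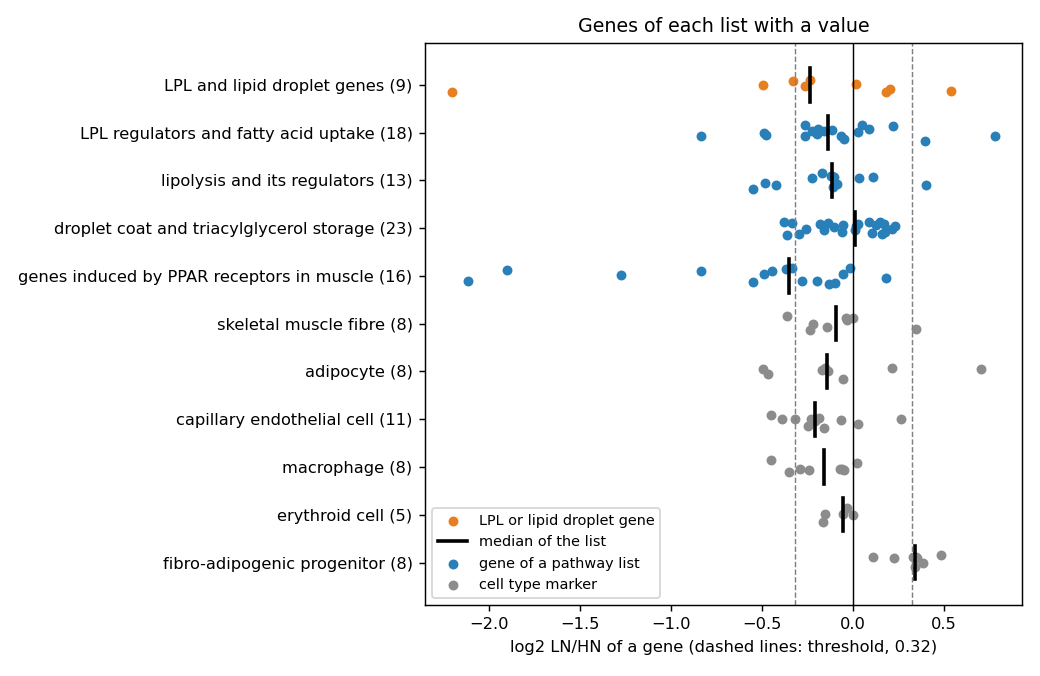
Log2 LN/HN (horizontal axis) of the genes with a value in each list, as points spread vertically for sight, with the median of the list as a bar and the number of genes in parentheses. *ANGPTL4* is the outermost point of its row, and the list of genes induced by PPAR receptors has a median of -0.35 against 0.34 for the markers of fibro-adipogenic progenitors.

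*ANGPTL4* and *PLIN2* are both known targets of the PPAR receptors, which fatty acids activate, and in these pools they lay on opposite sides. The difference between their log2 LN/HN was 2.74 ± 0.29, and lay between 1.71 and 2.78 over 10 ways of processing, the lowest with the normexp correction. Of 18 other genes that these receptors induce in muscle, 16 had a value, 15 were lower in the LN pool (50.7% of all genes) and 9 past the threshold (9.11% of all genes), with 0 past it on the higher side (8.85%) and a median log2 LN/HN of -0.35. The list is not independent, as the study names *PDK4*, *CPT1B* and *UCP2* from the same arrays. *UCP3*, an uncoupling protein of muscle, was at least 4.34-fold lower in the LN pool, as 1 of its 2 probes was dim there. *UCP2* had a log2 LN/HN of -1.90 from 1 of 2 detected probes. *PDK4*, which restrains pyruvate oxidation, had -1.28 over 8 probes, and after the normexp correction *UCP3* had -0.86, *PDK4* -0.84 and *UCP2* -0.50. Of the 9 genes, 7 were past the threshold after this correction (1.96% of all genes on the lower side). The others past the threshold, which act in the transport and oxidation of fatty acids, were *FABP3* as above, *SLC25A20* (-0.55), *ACADVL* (-0.49), *HADHB* (-0.45), *CPT1B* (-0.37) and *HADHA* (-0.34), the last pair short of it after the correction.

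The tissue label was checked against markers of cell types. Of 11 markers of muscle fibres 8 were matched, and all were well above background in both pools (summed signal 996537 in HN and 924496 in LN), with a median log2 LN/HN of -0.093 over the list. *MB*, which encodes myoglobin, was past the threshold lower (-0.37) and *MYH8*, a developmental myosin, higher (0.35, from 0.041 to 0.61 in its probes). The brightest, *TNNC2*, had a log2 signal of 18.35 in both pools, an equality that quantile normalization gives to probes of equal rank (log2 LN/HN down to -0.10 with other scalings). *TTN*, *MYLPF* and *TNNI2* had no matched probe. For adipocytes, which also express *LPL*, *CD36*, *LIPE* and *PLIN2*, 9 of 12 listed symbols were matched on the array (*TUSC5* is an older symbol of *TRARG1*, so that the same gene is listed under both), and *LEP* was not well above background in either pool. The other 8 had a summed signal of 614 in HN and 590 in LN and a median log2 LN/HN of -0.14, with *PPARG*, the brightest, at -0.15. They were split, with 2 past the threshold lower (*PCK1* at -0.49 and *TRARG1* at -0.47), 1 higher (*RETN* at 0.70) and 5 within, and 0 of these 3 were past it after the normexp correction. *ADIPOQ* had no matched probe.

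All 8 markers of fibro-adipogenic progenitors, the stromal cells that can form adipocytes, were higher in the LN pool (49.3% of all genes). Of these, 6 were past the threshold (8.85% of all genes), and 4 after the normexp correction (1.62%). *PDGFRB*, 1 of the 6, includes a probe dim on the HN array. It was at 0.49, but at 0.064 by its brightest probe and at 0.16 after the correction. The list had a median log2 LN/HN of 0.34 and a summed signal of 62528 in HN and 79567 in LN. *DLK1*, among these 8, had a log2 LN/HN of 0.34. *PLIN2* and *LPL* were higher in the LN pool too, and the part of these markers in these values was not tested. Of macrophage markers, 8 of 8 had a value (median -0.16, summed signal 5645 in HN and 4705 in LN), with *C1QB* (-0.45) and *CD68* (-0.35, but -0.13 after the normexp correction) past the threshold lower. Of erythroid markers, 5 of 8 had a value (median -0.058, summed signal 17126 in HN and 17192 in LN), with 0.0021 for *HBA*, while *SLC4A1* was not well above background in either pool and *EPB42* was so in the HN pool only, with no fold.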

How the data were processed

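Spot signals came from Agilent Feature Extraction 11.0.1.1 and are intensities that the authors deposited after background subtraction and detrending within each array. A second deposited table holds the authors' log2 values for 30027 probes after quantile normalization in GeneSpring GX, whose scale was read from the values. Here, log2 intensities of 43803 non-control spots were quantile-normalized with limma 3.58.1 in R 4.3.3, following the methods of the study. Spots flagged as outliers (13) were left out and repeated spots averaged. The software marked 74.5% (HN) and 70.9% (LN) of spots as well above background. A probe marked on 1 array only was set, on the dim side, to the lowest marked log2 signal (2.27 in HN, 2.82 in LN) or its own value if higher, so that "at least" precedes its fold. Probes were averaged per gene (Python 3.11.15, numpy 2.4.6, pandas 2.3.3, matplotlib 3.10.9). The ± is the software's error of both spots combined. The SD of the log2 LN/HN of a spot was 0.085 over 42 probes printed several times. The number of arrays limits the precision.

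Accessions were matched to symbols through the RefSeq gene table of ARS-UCD2.0 for 26742 probes (12603 symbols). The array was designed on another assembly, so no coordinates are given. The genes and lists were chosen with earlier results of these data known. All 10 genes with every probe, and list genes past the threshold, were named by rule, except that some listed genes are counted but not reported here by name. So were the first marker of each list by log2 signal, markers past 2-fold, and up to 3 symbols on each side of *ANGPTL4*. The steps were tested on simulated data with large changes and equal noise at all signals, which does not bear on differences near the threshold. The 9 alternatives were 3 other scalings, the normexp background correction, the authors' log2 values, 2 other filters on dim probes and 2 other ways to combine probes.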

Additional observations from a re-analysis of the deposited data

How the results depend on the processing

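Of 207 values recomputed under 9 alternatives, 195 moved by less than the error of the array (for genes), the median SD between probes (0.099, for medians) or 1.5 times (for counts). Some could not move. For the 5 genes with 1 probe, the 2 other filters and the 2 other ways to combine probes return the same value by construction. The normexp background correction, whose offset draws dim signals together, gave *ANGPTL4* a log2 LN/HN of -1.24 and *MGLL* of -0.24, left 1 gene past the threshold on the lower side in place of 3, and gave the 9 genes a median of -0.067. When each gene was read from its brightest probe, *MGLL* had -0.29 and was within the threshold, *CD36* had -0.33 and was past it, so that 3 genes were lower but not the same ones, *LIPE* had -0.024 and the median was -0.024. With dim probes kept as measured, *LIPE* had 0.058, the median of the 9 genes was 0.015, that of the macrophage markers -0.27 and that of the erythroid markers -0.16. *LIPE* was past the threshold with the 75th percentile subtracted (-0.41), without normalization (-0.37) and with the authors' log2 values (-0.51), and *PLIN5* was within it without normalization (-0.29), with the normexp correction (-0.29) and with the authors' values (-0.29). Over all genes, 1781 were past the threshold lower and 1731 higher, against 386 and 319 under the normexp correction, 3592 and 3251 with dim probes kept as measured, and 2693 lower with the 75th percentile subtracted. The normexp correction used the median pixel signal of the spots, because a mean is not among the columns used here. It thus differs from the other ways in its input as well as in the offset, and these were not varied apart. *LIPE* and *MGLL* each rest in part on dim probes. No paired analysis was possible because each group has 1 array.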

Other observations

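Among 9531 genes with a symbol (numbered LOC symbols left out) with every detected probe well above background on both arrays, *ANGPTL4* had the lowest log2 LN/HN. This order leaves out genes with a probe that was dim on 1 array. Over all 19554 genes with a value, *ANGPTL4* was at rank 3 from the lowest, and *UCP3* (-2.12 or lower) and *UCP2* (-1.90) followed it. The value of *UCP3* includes a bound, so its order against *ANGPTL4* is not fixed. The nearest genes in the order of the 9531 were *BRINP1* (-1.31, a difference of 0.90 from *ANGPTL4*), *PDK4* (-1.28, 0.93) and *CHRDL2* (-1.22, 0.98), with likeness taken as the difference in log2 LN/HN over 2 arrays.

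The second probe of *LIPE* had a log2 LN/HN of -0.51 here, -0.64 after cyclic loess, -0.66 without normalization and -0.99 in the authors' log2 values. For *ANGPTL4* the authors' values gave -2.13, for *PLIN2* 0.51 and for *PLIN5* -0.29.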
